A study of Mus musculus with 6 samples.

Results

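The PYHIN genes of the mouse Ifi200 cluster on chromosome 1 were followed in RNA sequencing libraries of freshly isolated dendritic cells from mouse spleen, which present antigen to T cells. The members are the rows of the count files whose symbol is Ifi202b, Ifi203, Ifi204, Ifi205, Mnda, Mndal, Pydc3, Pydc4, Pyhin1 or Aim2, and all 10 were found among 23420 gene symbols. They were chosen by family and position, with their difference between the 2 groups already known, so levels and fold changes between the groups are given as a description and carry no p-value here. The groups, numbered 1 to 3 each, were TBK1-DKO with 3 libraries and wild type (WT) with 3. The labels give the strain C57BL/6 for all 6 samples, and an age of 10 weeks in one label field and of 8 weeks in another. The sources used here do not say what DKO stands for, which alleles or driver the mice carry, or whether animals were pooled. TBK1 is a kinase that phosphorylates interferon regulatory factors after nucleic acid sensing.

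PYHIN proteins pair an N-terminal pyrin domain, which joins them to other pyrin proteins, with a C-terminal HIN domain, which binds double-stranded DNA. Aim2 encodes the cytosolic DNA sensor that recruits the adaptor ASC (gene Pycard) and caspase-1 into an inflammasome. Ifi204 encodes p204, a mouse relative of human IFI16 that works with STING, and Ifi202b encodes p202, which has HIN domains but no pyrin domain and restrains AIM2. Most members are induced by interferon, through DNA elements such as the interferon-stimulated response element (ISRE) or the gamma-activated sequence (GAS). The level of Ifi202b is known to differ between inbred mouse strains.

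The DNA before the start of transcription is printed for the 4 members with the largest differences between the groups, since these differ in opposite directions. Each window holds the 250 bases before the RefSeq start on build GRCm38.p6, written 5′ to 3′ on the strand of the gene. For Ifi202b, Pydc3 and Pyhin1, the bases just after that start were not found in a GENCODE transcript of the gene. Presence and position of motifs in these windows thus depend on the RefSeq start. Capitals mark every match to the ISRE core, GAAANNGAA on either strand, or to the GAS core, TTCNNNGAA, which reads alike on both strands, and no match of the ISRE core overlapped one of the GAS core. The windows lie at chr1:173982845-173983094 for Ifi202b (minus strand), chr1:173673415-173673664 for Pydc3 (plus strand), chr1:173599273-173599522 for Pydc4 (minus strand) and chr1:173630609-173630858 for Pyhin1 (plus strand).
Ifi202b: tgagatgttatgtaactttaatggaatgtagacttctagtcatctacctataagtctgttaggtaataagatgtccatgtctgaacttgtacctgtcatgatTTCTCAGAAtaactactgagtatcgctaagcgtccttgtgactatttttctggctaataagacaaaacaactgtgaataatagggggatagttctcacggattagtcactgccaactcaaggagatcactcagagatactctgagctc
Pydc3: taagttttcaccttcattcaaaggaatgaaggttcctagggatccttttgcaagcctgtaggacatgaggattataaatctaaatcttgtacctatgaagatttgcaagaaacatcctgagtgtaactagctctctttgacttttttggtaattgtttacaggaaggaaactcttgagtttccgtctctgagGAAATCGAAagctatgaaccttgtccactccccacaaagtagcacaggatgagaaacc
Pydc4: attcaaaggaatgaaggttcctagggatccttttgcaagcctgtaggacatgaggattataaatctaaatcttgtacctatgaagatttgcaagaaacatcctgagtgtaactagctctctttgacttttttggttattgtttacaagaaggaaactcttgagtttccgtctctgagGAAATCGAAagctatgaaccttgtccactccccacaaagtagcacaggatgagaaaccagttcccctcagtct
Pyhin1: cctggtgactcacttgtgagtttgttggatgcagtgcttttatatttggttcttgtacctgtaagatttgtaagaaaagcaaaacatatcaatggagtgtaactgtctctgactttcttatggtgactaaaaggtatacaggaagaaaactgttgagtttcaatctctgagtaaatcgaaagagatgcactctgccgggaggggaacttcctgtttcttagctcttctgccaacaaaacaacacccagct

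The windows of Pydc3 and Pydc4 shared 233 of their 250 bases in alignment (93.2%). Each held an ISRE core of the same letters, GAAATCGAA, at 58 to 50 bases before the start in Pydc3 and at 73 to 65 bases before it in Pydc4. The Ifi202b window held no ISRE core and a GAS core, TTCTCAGAA, at 148 to 140 bases before the start. The Pyhin1 window held neither, and neither did that of Aim2; this says only that these letters are not in these windows. RefSeq gave 11 windows for 9 of the 10 members, Ifi204 having none. One of the windows each of Ifi203, Ifi205 and Mnda and both windows of Mndal held an ISRE core. Among all 32851 windows of the same length, 7.13% held the ISRE core, 7.02% the GAS core and 0.752% both.

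The longest stretch found letter for letter before at least 4 members was gGAAATCGAAagctatgaac, 20 bases long with the ISRE core in capitals. Ifi203, Mndal, Pydc3 and Pydc4 held it. Besides their windows, a single one of the 32851 held it on either strand, that of Ifi206, a further gene of the cluster. Ifi203 and Mndal have 2 windows each, and 1 of the 4 pairings between them also shared 93.2% of 250 bases, while the other pairings shared 23.2% to 48%. No other pair of members exceeded 59.2% of 250 bases. This measure counts unaligned bases as different: Ifi205 and Mnda shared 141 of 151 aligned bases (56.4% of 250), and the lowest pairing of Ifi203 with Mndal shared 58 of 59.

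Likeness extends into the transcripts and bears on the counts, because reads that fit more than 1 place are left out of HTSeq counts. Windows of 50 bases were taken from the longest coding transcript of each member (GENCODE M21). Of these, 0% in Ifi202b and 0.932% in Aim2 were also found in a transcript of another gene. The share was 26.0% in Pydc3 and 27.9% in Pydc4, mostly with each other, and 35.1% in Pyhin1, mostly with Ifi214. It was 10.9% in Ifi203, 27.2% in Mndal, 30.2% in Ifi204 and 49.6% in Ifi205. Mnda, which RefSeq lists as Ifi211, had the highest share, 72.8%, and most of its copies lay in Ifi205. Levels of these members are therefore uncertain, and Mnda most of all. The sources used here give neither read length nor strand setting, so reads of antisense genes cannot be told apart. The shares depended on the window: with 100 bases they were 56.9% in Mnda and 8.23% in Pydc3. With 35 bases they rose to 77.6% in Mnda, 38.3% in Pydc3, 4.56% in Aim2 and 0.661% in Ifi202b. Only exact copies in annotated transcripts were sought, so copies elsewhere in the genome are not counted. Exons of Mndal overlapped those of Ifi203 and of Gm38050 over 4.27% of their bases, and 0.552% of Ifi203 exons overlapped Mndal. No other member had exons shared with another gene.

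**Figure D1:**
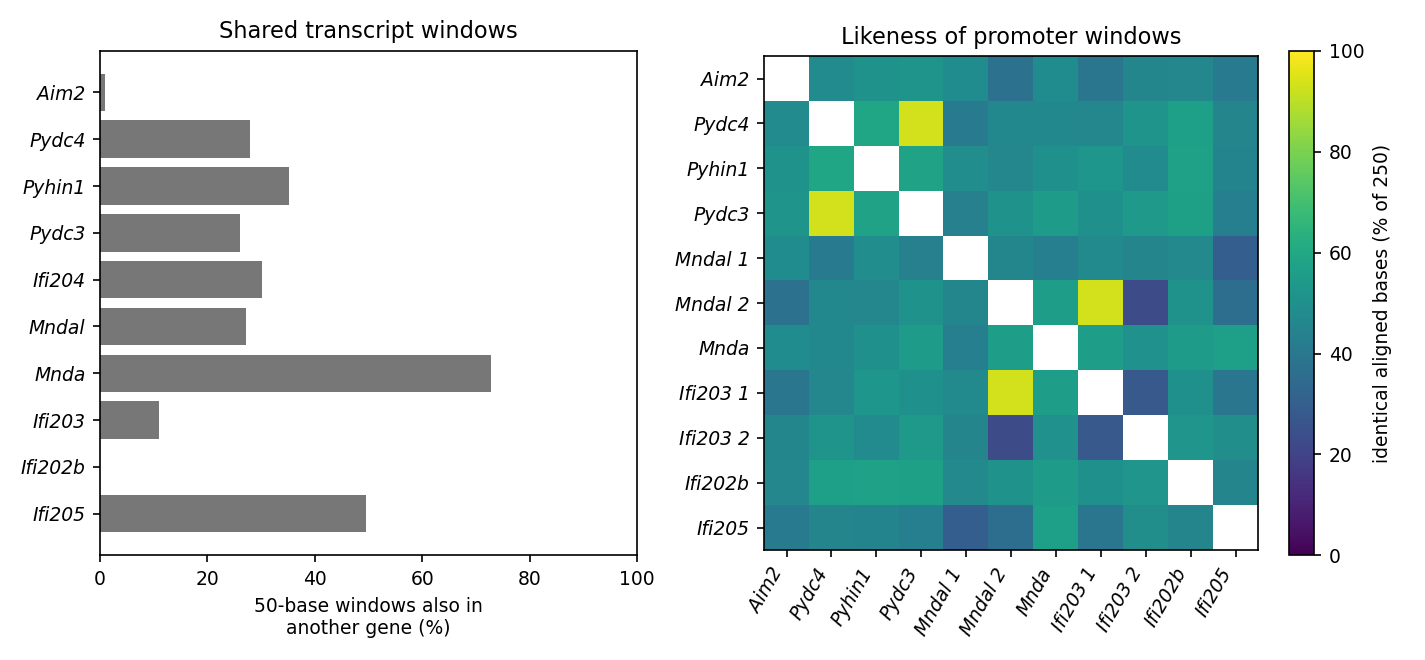
Left, the share of 50-base transcript windows of each member that also occur in a transcript of another gene (%). Right, identical aligned bases between the 250-base windows before the starts (% of 250; the number marks the window where a gene has more than 1): Pydc3 with Pydc4 and Ifi203 window 1 with Mndal window 2 stand out at 93.2%, and members run in order along the chromosome.

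Reads in genes numbered 45018389 to 47349648 per TBK1-DKO library and 31077585 to 36145508 per WT library. Tbk1 itself was at 82.3 ± 2.69 CPM (counts scaled to library size; mean ± SD, n = 3) in TBK1-DKO and 85.0 ± 5.08 CPM in WT (log2 fold change -0.05, adjusted p = 0.63, edgeR quasi-likelihood, Benjamini-Hochberg adjusted), so its whole-gene count does not check the labels. Markers of dendritic cells (Itgax, Flt3, Zbtb46, H2-Ab1, Cd74) were all present, with a sum of 8552 to 10016 CPM in TBK1-DKO and 8779 to 10087 CPM in WT. Of these 5 markers, 1 was called higher and 1 lower. Markers of other cells were present too and moved with the label: all 9 neutrophil and precursor markers were called higher in TBK1-DKO, with sums of 5679.5 to 6559.6 CPM in TBK1-DKO and 2331 to 2600.5 CPM in WT. Of 9 monocyte and macrophage markers 7 were called lower and 1 higher (3119 to 3246 CPM in TBK1-DKO and 4597 to 4679 CPM in WT), and 4 of 5 plasmacytoid and 4 of 5 type 1 dendritic cell markers were called lower. Markers called higher included 4 of 4 of plasma cells and 3 of 3 tested of erythroid cells, and markers called lower included 3 of 5 of B cells, 4 of 4 of T cells and 3 of 4 of NK cells. Of 5 type 2 dendritic cell markers 2 were called higher and 0 lower, while their sum was 1182 to 1220.3 CPM in TBK1-DKO and 1249 to 1271 CPM in WT. No marker was at 0 in all libraries. Their part in the differences below was not tested, and in bulk RNA fewer cells of a type and less RNA per cell cannot be told apart. TBK1-DKO 2 and WT 1 stood apart from the other libraries of their groups by the chi-square of their counts per degree of freedom: it was 38.3 between TBK1-DKO 1 and 2 and 2.47 between TBK1-DKO 1 and 3, while it was 13 between WT 1 and 2 and 2.62 between WT 2 and 3. The labels do not say whether each library is a separate animal, and p-values then cover only the spread among these samples, which may be technical.

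The family moved in opposite directions: in TBK1-DKO, Ifi202b was 9.63-fold higher than in WT, Pydc3 was 3.95-fold lower, Pydc4 3.98-fold lower and Pyhin1 2.10-fold lower. Mndal and Ifi203 were lower by smaller amounts, and the intervals of Aim2 and Ifi204 included 0. All 10 members passed the filter on low counts. By edgeR over all genes, 6 of 10 were called, 1 higher and 5 lower, beside 23.6% of all genes tested (13.7% higher and 9.9% lower). The groups did not overlap in 8 of 10 members, beside 41.1% of all genes tested. The median log2 fold change was -0.27 over the members and 0.001 over all genes. These counts describe genes picked with this contrast known, and nothing is read from them.

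Ifi202b (chromosome 1, 173962568 to 173982744, minus strand), the inhibitor of AIM2, had 1744, 1758 and 1566 reads in TBK1-DKO 1, 2 and 3, against 126, 125 and 134 reads in WT 1, 2 and 3. Scaled for depth, these were 36.9, 38.6 and 34.8 CPM in TBK1-DKO and 4.01, 3.47 and 3.98 CPM in WT. Every TBK1-DKO library was thus far above every WT library. The log2 fold change was 3.27 (SE 0.09, 95% interval 3.07 to 3.46), a 9.63-fold higher level. Its range over 16 other settings of the analysis was 3.18 to 3.32.

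Pydc3 and Pydc4 are named for their pyrin domain and are listed by RefSeq as Ifi208 and Ifi213. Pydc3 (173673675 to 173698395, plus strand) stood at 16.9, 14.1 and 16.4 CPM in TBK1-DKO, against 62.4, 61.7 and 63.3 CPM in WT. Pydc4 (173566283 to 173599274, minus strand) stood at 4.80, 3.29 and 5.60 CPM in TBK1-DKO, against 20.0, 17.1 and 17.5 CPM in WT. In both, all TBK1-DKO libraries lay below all WT libraries, and TBK1-DKO 2 was the lowest. The log2 fold changes were -1.98 (SE 0.08, interval -2.15 to -1.81) for Pydc3 and -1.99 (SE 0.16, interval -2.35 to -1.64) for Pydc4. Read for read the pair kept a like ratio: 3.58 ± 0.685 Pydc3 reads per Pydc4 read in TBK1-DKO and 3.45 ± 0.281 in WT (SD, n = 3 each). The spread of Pydc4 was the widest of the members, with a coefficient of variation of 25.7% in TBK1-DKO, at 150 to 252 reads per library.

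Pyhin1 (173630917 to 173647928, plus strand), which RefSeq lists as Ifi209 and which is related to human IFIX, lies between Pydc4 and Pydc3. It stood at 116, 117 and 119 CPM in TBK1-DKO, against 271, 234 and 232 CPM in WT. The TBK1-DKO libraries lay close together and well below the WT ones, of which WT 1 was the highest. The log2 fold change was -1.07 (SE 0.07, interval -1.22 to -0.91).

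Mndal and Ifi203, which share a like window before a start, showed smaller differences in the same direction. Mndal (173849126 to 173942491, minus strand) stood at 158, 164 and 156 CPM in TBK1-DKO, against 216, 218 and 193 CPM in WT, a log2 fold change of -0.39 (SE 0.06). Ifi203 (173920407 to 173942672, minus strand) stood at 223, 209 and 217 CPM in TBK1-DKO, against 301, 247 and 253 CPM in WT, a log2 fold change of -0.30 (SE 0.08). The groups did not overlap in either gene, but the call of Ifi203 was lost without TBK1-DKO 3. In the annotation, the span of Mndal holds that of Mnda and nearly all of that of Ifi203. The like windows of Mndal and Ifi203 lie apart, at 173880188 to 173880437 for Mndal and 173942493 to 173942742 for Ifi203.

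The other members were not called. Aim2 (173350879 to 173466040, plus strand), the DNA sensor, stood at 103, 103 and 102 CPM in TBK1-DKO, against 106, 93.1 and 89.8 CPM in WT, and the groups overlapped through WT 1. Its log2 fold change of 0.09 (SE 0.07, interval -0.06 to 0.24) became 0.15, a call, when TBK1-DKO 2 and WT 1 were left out together. Ifi204 (173747293 to 173766943, minus strand) stood at 43.5, 50 and 43.2 CPM in TBK1-DKO, against 50.2, 44.3 and 43.3 CPM in WT, so the groups overlapped almost entirely (log2 fold change -0.01, interval -0.19 to 0.17). Ifi205 (174011998 to 174031810, minus strand) and Mnda (173896345 to 173913046, minus strand), named for the human myeloid nuclear differentiation antigen, were slightly lower without overlap. Ifi205 stood at 28.4, 27.1 and 29.4 CPM in TBK1-DKO, against 35.6, 31.1 and 29.6 CPM in WT (log2 fold change -0.18, SE 0.08). Mnda stood at 9.67, 9.73 and 9.75 CPM in TBK1-DKO, against 13.4, 11.2 and 9.99 CPM in WT (log2 fold change -0.24, SE 0.11), and without WT 3 it was called at -0.35. In both genes the gap between WT 3 and the nearest TBK1-DKO library was smaller than the spread among the WT libraries. WT 1 was the highest WT library in 8 of the 10 members, and the lowest in 0.

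**Figure D2:**
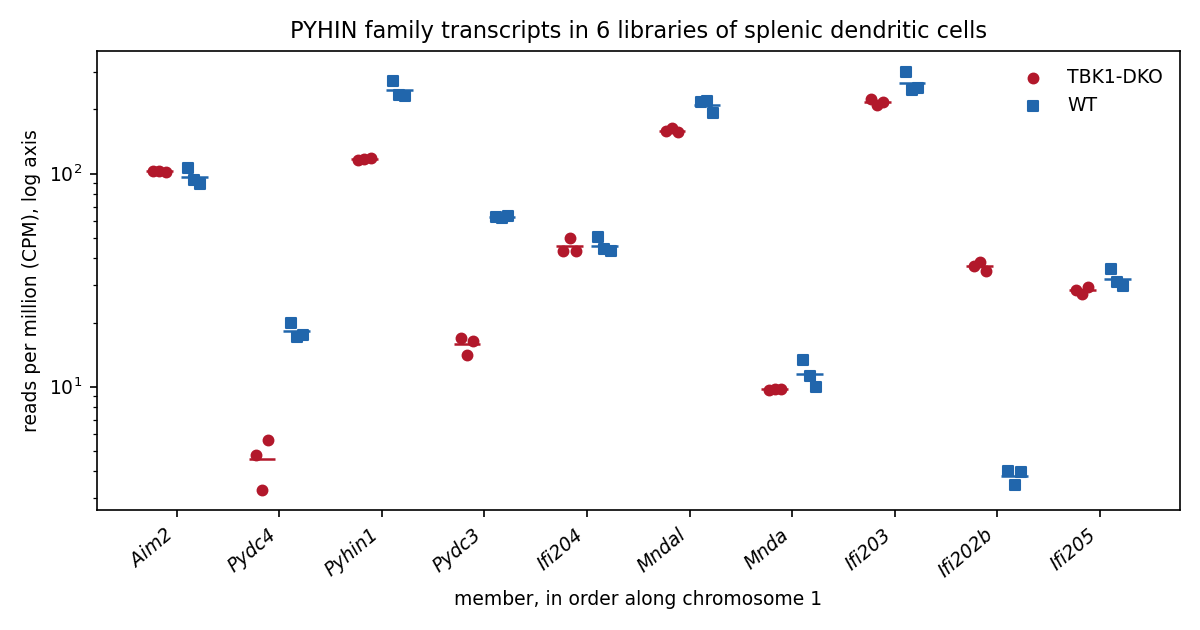
Library-scaled counts (CPM, log axis) of each member in order along chromosome 1, TBK1-DKO (circles) left of WT (squares), 1 point per library and a line at the mean of 3. Ifi202b stands at 34.8 to 38.6 CPM in TBK1-DKO and 3.47 to 4.01 CPM in WT, and Pydc4, Pyhin1 and Pydc3 lie lower in TBK1-DKO without overlap.

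Summed over the 10 members, family transcripts made up 736 ± 3.66 CPM in TBK1-DKO and 993 ± 76.3 CPM in WT (SD, n = 3 each), with 733 to 740.1 CPM in TBK1-DKO and 937 to 1079.6 CPM in WT. Shares within a library do not depend on its depth. Ifi202b made up 4.99 ± 0.248% of the sum in TBK1-DKO and 0.386 ± 0.0347% in WT. Pyhin1 made up 15.9 ± 0.275% in TBK1-DKO and 24.7 ± 0.386% in WT, and Pydc3 made up 2.15 ± 0.196% in TBK1-DKO and 6.32 ± 0.495% in WT. Aim2 held a larger share of the smaller sum, 13.9 ± 0.0354% in TBK1-DKO and 9.69 ± 0.119% in WT. Ifi203 made up 29.4 ± 0.861% in TBK1-DKO and 26.9 ± 1.08% in WT, and Mndal 21.7 ± 0.547% in TBK1-DKO and 21.1 ± 1.40% in WT. The groups overlapped in the share of Mndal. The ratio of the DNA sensor to Pyhin1 was 0.874 ± 0.0161 Aim2 reads per Pyhin1 read in TBK1-DKO and 0.392 ± 0.00567 in WT, and there were 2.35 ± 0.334 Ifi202b reads per Pydc3 read in TBK1-DKO and 0.0611 ± 0.0043 in WT.

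**Figure D3:**
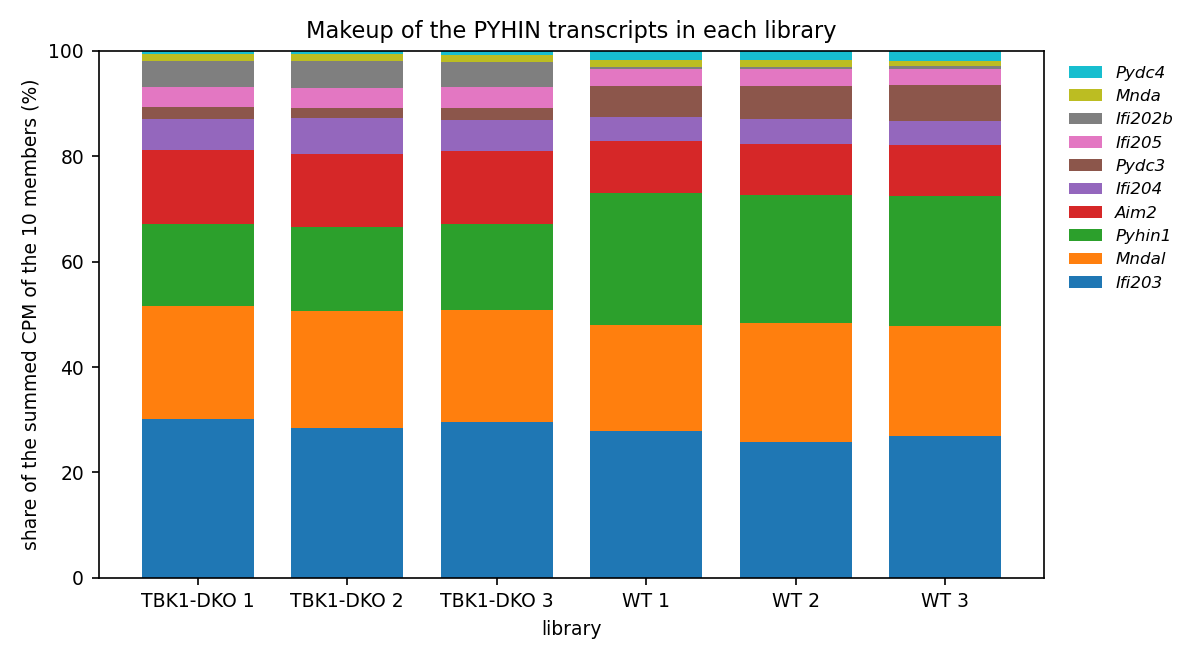
Share of the summed CPM of the 10 members held by each member (%), 1 bar per library, the 3 TBK1-DKO libraries left of the 3 WT libraries. Pyhin1 holds 15.9% on average in TBK1-DKO and 24.7% in WT, and the grey band of Ifi202b holds 4.99% in TBK1-DKO and 0.386% in WT.

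Levels of different genes were compared per kilobase of the longest coding transcript, in CPM per kilobase. In TBK1-DKO, Mndal was the most abundant (78.7 ± 2.01), followed by Ifi203 (57.6 ± 1.82), Aim2 (36.1 ± 0.223), Pyhin1 (34.1 ± 0.421), Ifi202b (21.7 ± 1.12), Ifi204 (19.8 ± 1.67), Ifi205 (17.5 ± 0.709), Mnda (5.44 ± 0.024), Pydc3 (5.29 ± 0.490) and Pydc4 (1.66 ± 0.426). Of neighbours in that order, Ifi202b and Ifi204, and Mnda and Pydc3, overlapped between libraries. In WT the order was Mndal (103 ± 6.81), Pyhin1 (71.5 ± 6.35), Ifi203 (71.2 ± 7.79), Aim2 (33.9 ± 3.02), Pydc3 (20.9 ± 0.262), Ifi204 (20.0 ± 1.62), Ifi205 (19.9 ± 1.93), Pydc4 (6.62 ± 0.567), Mnda (6.45 ± 0.957) and Ifi202b (2.25 ± 0.179). Pyhin1 and Ifi203, Pydc3 with Ifi204 and Ifi204 with Ifi205, and Pydc4 and Mnda overlapped there. Ifi202b thus stood at rank 5 in TBK1-DKO and at rank 10 in WT, and Pydc3 at rank 9 in TBK1-DKO and rank 5 in WT. Dividing by the windows found in no other gene instead raised Mnda to 20.6 ± 0.0911 in TBK1-DKO and 24.4 ± 3.63 in WT and Ifi205 to 35.9 ± 1.45 in TBK1-DKO and 40.7 ± 3.95 in WT, so the places of members with many shared windows depend on that choice. Ifi202b was then at rank 7 in TBK1-DKO and at rank 10 in WT, and Pydc3 at rank 9 in TBK1-DKO and rank 7 in WT.

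Along the chromosome the 3 lower genes with the largest differences, Pydc4, Pyhin1 and Pydc3, are neighbours among the members, although Pyhin1 and Pydc3 lie on the plus strand and Pydc4 on the minus strand. Ifi202b lies toward the other end, between Ifi203 and Ifi205, which both stood slightly below WT. Differences of opposite direction thus lay side by side. Of 14 further symbols of the cluster that were sought, 2 are in the files. AI607873, which RefSeq lists as Ifi207, lies between Pydc3 and Ifi204 and fell to 60.9 ± 6.62 CPM in TBK1-DKO, against 89.4 ± 3.24 CPM in WT (log2 fold change -0.55, SE 0.08, adjusted p = 6.7e-04, edgeR quasi-likelihood, Benjamini-Hochberg adjusted). The listed symbol BC094916 had no match in the annotation used and is not placed here. It rose to 18.5 ± 1.07 CPM in TBK1-DKO, against 11.4 ± 1.5 CPM in WT (log2 fold change 0.70, SE 0.10, adjusted p = 6.6e-04, edgeR quasi-likelihood, Benjamini-Hochberg adjusted). Both p-values belong to a list chosen with earlier results of these data known, and do not allow for that choice.

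**Figure D4:**
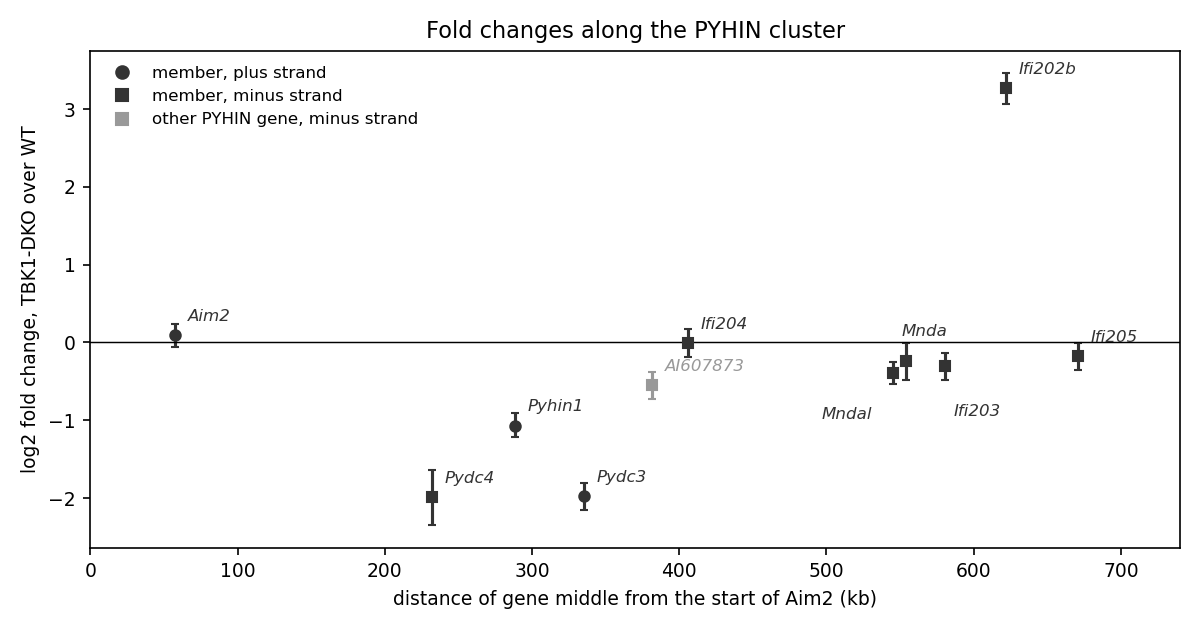
Log2 fold change of TBK1-DKO over WT with its 95% interval, against the distance of the middle of each gene from the start of Aim2 (kb); circles are genes on the plus strand, squares on the minus strand, and grey marks AI607873, a PYHIN gene outside the 10. Ifi202b stands at 3.27, and Pydc4, Pyhin1 and Pydc3 at -1.99, -1.07 and -1.98.

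Of 30 in a list of type I interferon targets, 19 rose, 1 fell and 10 were not called (66.7% called, beside 23.6% of all genes tested), with a median log2 fold change of 0.31. Oas3 and Oas2, which make the oligoadenylates that activate RNase L, rose by 1.13 (SE 0.07, adjusted p = 4.8e-06) and 1.06 (SE 0.08, adjusted p = 9.5e-06) on the log2 scale (edgeR quasi-likelihood, Benjamini-Hochberg adjusted). Xaf1 was the single gene called lower (log2 fold change -0.34, SE 0.06). Oas3 and Oas2 are the 2 largest called rises of a list chosen with earlier results of these data known. Their p-values and the share called do not allow for that choice. The median of the family members was -0.27, but they were picked with this contrast known. Nothing is read from that median beside this list, and whether the 2 lists differ was not tested.

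In interferon signalling and DNA sensing, calls numbered 7 higher and 3 lower among 24 genes (41.7% called, beside 23.6% of all genes tested), and the median was 0.09. Jak2, a kinase of cytokine receptors, rose to 353 ± 20.6 CPM in TBK1-DKO, against 215 ± 10.6 CPM in WT, and Irf7, the interferon regulatory factor, rose to 177 ± 14.1 CPM, against 119 ± 5.37 CPM in WT. Irf8, a factor needed by type 1 and plasmacytoid dendritic cells, fell to 591 ± 12.7 CPM in TBK1-DKO, against 738 ± 43.5 CPM in WT. Markers of those cells were lower as given above, as were markers of B, T and NK cells. Whether these differences are linked was not tested. Ifngr1, a chain of the interferon gamma receptor, fell by 0.24 on the log2 scale (SE 0.05), a call lost without TBK1-DKO 1 or 3. The count of calls in this list depended on single libraries. It was 4 without TBK1-DKO 1, 4 without TBK1-DKO 3, 5 without WT 2 and 5 without WT 3. Calls over all genes fell too in these settings, to 2493, 2548, 2308 and 2476 in that order, from 3402. A fall in calls was thus not particular to this list.

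Inflammasome genes went both ways, with 5 called higher and 5 called lower among 24 (41.7% called, beside 23.6% of all genes tested) and a median of 0.03. Casp4, the inflammatory caspase for cytosolic lipopolysaccharide, rose to 18.9 ± 0.668 CPM in TBK1-DKO, against 7.87 ± 1.31 CPM in WT, and Nlrp1a, an inflammasome sensor, rose to 9.28 ± 0.221 CPM, against 4.63 ± 0.342 CPM in WT. Il18, a cytokine matured by caspase-1, fell to 49.4 ± 5.17 CPM in TBK1-DKO, against 77.1 ± 2.97 CPM in WT, and Naip5, a sensor of flagellin, fell to 34.4 ± 1.10 CPM, against 51.4 ± 5.11 CPM in WT. Pycard and Casp1, whose products AIM2 recruits, and Gsdmd were named here after their values were seen. None of them was called: the log2 fold change was -0.04 for Pycard, -0.02 for Casp1 and 0.02 for Gsdmd. Of the same list, and also named afterwards, Casp8 (-0.18) and Il1b (-0.35) were called lower and Zbp1 (0.53) higher. Nothing is read from setting these genes beside Aim2 or Ifi202b, since all were named with their values or this contrast known.

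**Figure D5:**
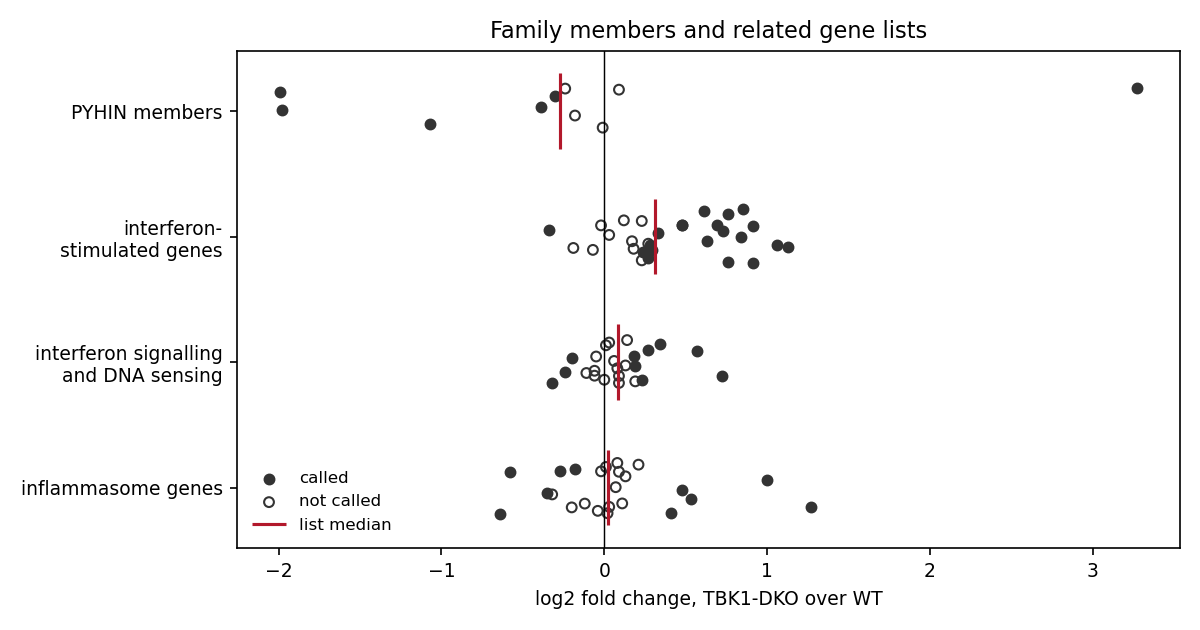
Log2 fold change of TBK1-DKO over WT for the 10 members and the genes of 3 related lists; filled points were called by edgeR, open points were not, and the line is the list median. The members, picked with this contrast known, spread from -1.99 to 3.27, so nothing is read from their spread beside that of the lists. The medians of the other lists are 0.31, 0.09 and 0.03.

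The genes outside the family whose profile over the 6 libraries was nearest to that of Ifi202b were Zfp534 (chromosome 4), Prph (chromosome 15) and Col5a3 (chromosome 9), at Euclidean distances of 0.316, 0.339 and 0.390 between centred log2(CPM + 0.5) values. Zfp534 stood at 3.92 ± 0.190 CPM in TBK1-DKO and 0.0907 ± 0.0359 CPM in WT. Prph stood at 23.1 ± 2.12 CPM in TBK1-DKO and 2.20 ± 0.213 CPM in WT, and Col5a3 at 3.41 ± 0.185 and 0.0516 ± 0.0482 CPM. Log2 fold changes were 5.41 for Zfp534, 3.39 for Prph and 6.02 for Col5a3, against 3.27 for Ifi202b. WT levels of Zfp534 and Col5a3 lie below the added 0.5, so their distances depend on that addition. The nearest to Pydc3 were BC018473 (chromosome 11), Zfp429 (chromosome 13) and St6galnac1 (chromosome 11), at distances of 0.243, 0.274 and 0.319. BC018473 stood at 30.5 ± 2.72 CPM in TBK1-DKO and 133 ± 6.80 CPM in WT. None of these 6 genes lies on chromosome 1. BC018473 (116752167 to 116759373) and St6galnac1 (116765025 to 116775507) lie close together on chromosome 11. Family members were left out of the search, and whether other genes near the cluster have like profiles was not tested.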

How the data were processed

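Read counts per gene symbol were taken as deposited by the authors for 6 libraries, neither scaled nor pooled; TopHat, TopHat2, HTSeq, DESeq2 and mm10 are named in the submitters' processing notes, without versions. Rows that name no gene held 8.20% to 10.7% of records and stayed out of library sizes and tests. Counts were fitted with edgeR 4.0.16 (R 4.3.3): filterByExpr with a minimum count of 10 kept 14388 genes, library sizes were scaled by TMM, and group was the single term of the quasi-likelihood fit. A gene was called where its p, adjusted by Benjamini-Hochberg across the whole table, was under 0.05. SEs were derived from the F statistic.

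Symbols were matched to GENCODE M21 (GRCm38) by name or RefSeq synonym; 6 members matched by name and 4 by synonym. Promoter windows are RefSeq sequences, aligned with Biopython 1.88; figures were drawn with matplotlib 3.10.9. Genes of the lists named in the text are the 2 largest rises and falls among called genes, plus those said to be chosen afterwards. The members and lists were chosen with earlier results of these data known.

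Alternatives were DESeq2 1.42.0, limma-voom (limma 3.58.1), other scalings and filters, a replicate block, no robust option and left-out libraries; length and GC offsets were added after the data were seen.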

Additional observations from a re-analysis of the deposited data

Results flagged for a closer look

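The share of records outside the gene counts was higher in TBK1-DKO. Records aligned to more than 1 place made up 6.65 ± 0.294% in TBK1-DKO and 5.63 ± 0.173% in WT (SD, n = 3 each), a difference of 1.02 percentage points. Records that overlapped more than 1 gene made up 2.83 ± 0.139% in TBK1-DKO and 2.32 ± 0.0838% in WT, a difference of 0.509 percentage points. Neither group overlapped the other, and the exact permutation test gave p = 0.1 (two-sided), the smallest that 3 against 3 libraries allow. These records name no gene, and their part in the levels above was not tested.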

How the results depend on the processing

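In 16 alternatives the log2 fold changes of Ifi202b, Mndal, Pydc3, Pydc4 and Pyhin1 kept their direction and call, with ranges of 3.18 to 3.32, -0.46 to -0.35, -2.03 to -1.92, -2.16 to -1.75 and -1.12 to -0.99. Ifi203 (-0.37 to -0.20) lost its call without TBK1-DKO replicate 3, Mnda (-0.35 to -0.13) was called without WT replicate 3, and Aim2 (0.03 to 0.16) was called with TBK1-DKO 2 and WT 1 left out together and with length and GC offsets. Ifi205 (-0.25 to -0.08) and Ifi204 (-0.10 to 0.06) were called in none of the 16. Over all genes, 6897 were called with TBK1-DKO 2 and WT 1 left out together and 5241 with length and GC offsets, in place of 3402, and 2308 to 4352 with each library left out in turn. In the list of interferon signalling and DNA sensing, 18 were called with TBK1-DKO 2 and WT 1 left out together and 4 to 13 with each library left out in turn, in place of 10. With the replicate number as a block, 4086 genes and 6 members were called. Deviations of same-numbered libraries correlated at 0.268, 0.222 and -0.109, and those of differently numbered ones at -0.306 to 0.201. With so few libraries per group, this cannot decide whether the numbers pair the libraries. The causes were not tested. The fewest reads stand behind Ifi202b in WT (125 to 134 per library) and Pydc4 in TBK1-DKO (150 to 252), and shared windows limit Mnda most.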
